A study of Mus musculus and Mus spretus with 72 samples.

Results

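Liver and kidney RNA of the western Mediterranean mouse, Mus spretus, was compared with that of house mice, Mus musculus. The comparison rests on 3 spretus arrays of 24 liver/kidney arrays, in a series of 72 arrays that also covers brain and testis, and its members were found by array title. The 4 house mouse groups were dom (6 arrays of Mus musculus domesticus), mus (6 of Mus musculus musculus), cas (3 of Mus musculus castaneus) and ssp (6), where ssp is a sub-species that the labels do not name. Each array had 2 channels and set RNA of 1 male, about 12 weeks old, against liver/kidney RNA pooled from 9 mice of the laboratory strain C57BL6, so all groups share that reference. The labels treat liver and kidney as a single tissue without stating how they were mixed, and the titles number the spretus animals 01, 02 and 03. Values are given as log2 of sample over pool. The base and the direction of the deposited ratio are not stated, and sample over pool is taken as likely because channel 2 held the sample on every array. Dyes are named in the labels of 1 liver/kidney array, spretus 02. Were the direction inverted, every sign below would turn.

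Liver and kidney are the organs that clear and modify what the blood carries. Hepatocytes secrete most plasma proteins, make bile acids and cholesterol, and detoxify compounds with cytochrome P450 enzymes and glutathione transferases. Kidney tubules reabsorb solutes from the filtrate of the glomeruli, and mouse liver and kidney both carry strong effects of sex hormones. M. spretus and the house mouse are separate species that overlap in part of their range, and the comparison addresses expression divergence beyond that between sub-species.

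Between 42825 and 44832 of 46128 spots per array had a value, adjacent duplicate spots correlated at r of 0.512 to 0.785, and 20652 probes were tested. The arrays fell into 3 sets by which of their spots lacked a value: 18 arrays held all dom, mus and ssp animals, 5 held cas 01, 02 and 03 with spretus 01 and 03, and spretus 02 stood alone. The patterns of missing spots correlated at 0.525 to 0.700 within a set and at -0.016 to 0.030 between sets. For spretus against dom, mus and ssp, the species and the set of arrays therefore cannot be told apart, and spretus 01 and 03 against cas was the only contrast within a set. Spretus 02 also stood apart in its values. Its SD over probes was 0.420 against 0.183 to 0.383 on the other arrays, and over all probes it correlated with spretus 01 at 0.167 and with spretus 03 at 0.0502, while spretus 01 and 03 correlated at 0.325. Pairs of house mouse arrays had a median r of 0.362. The contrasts and the leading genes are therefore given with and without spretus 02, and so are the counts of gene lists that its omission alters most.

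The labelled tissue was checked against marker genes, as levels relative to the pool. The mean over hepatocyte secreted-protein probes was -0.0244, -0.149 and 0.0084 on spretus 01, 02 and 03, against 0.0357 to 0.334 on the 21 house mouse arrays, so the groups did not overlap. The mean over proximal and distal tubule probes was 0.0200, -0.0665 and 0.0114 in spretus, within the house mouse range of -0.0894 to 0.0772. The liver mean minus the kidney mean was -0.0444, -0.0824 and -0.0029 in spretus, below all house mouse arrays (0.0765 to 0.377). A different share of liver in the combined tissue, fewer hepatocytes and less of these RNAs per hepatocyte cannot be told apart in bulk RNA, and the part of this marker difference in the results that follow was not tested beyond 1 fit. With the marker difference as a covariate, 58 probes passed the main test in place of 1547, although the groups do not overlap on that covariate. No probe sequences were used, so mismatches of spretus RNA to the probes were not examined. This limit holds for the marker means and for all differences below.

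**Figure D1:**
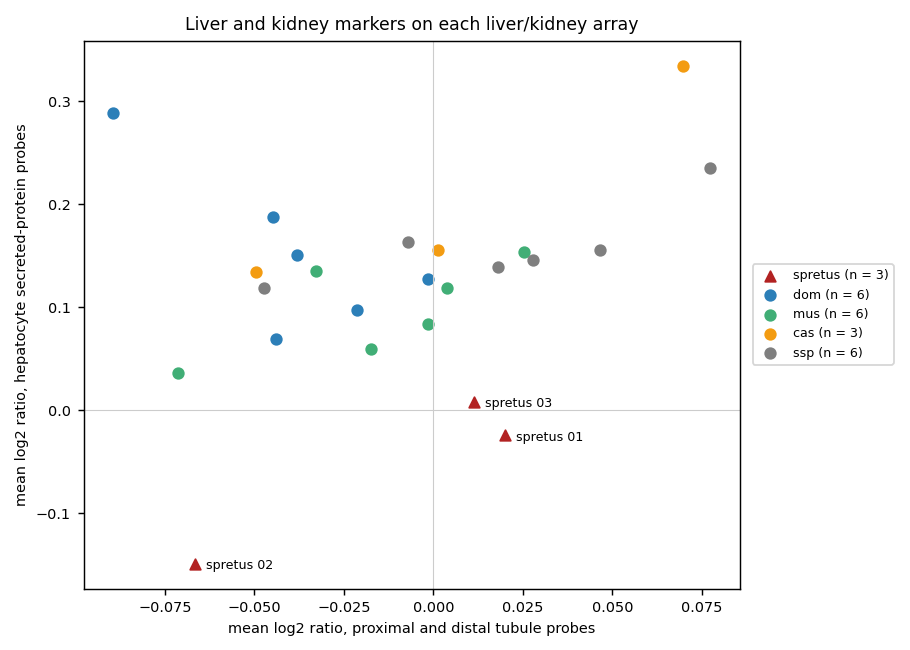
Each point is 1 liver/kidney array, with the mean log2 ratio to the C57BL6 pool over proximal and distal tubule probes on the horizontal axis and over hepatocyte secreted-protein probes on the vertical axis. The 3 spretus arrays (triangles) lie lowest on the vertical axis, from -0.149 to 0.0084, while 21 house mouse arrays lie between 0.0357 and 0.334.

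The promoters of 3 genes reported below are shown from the RefSeq table of laboratory mouse (GRCm38.p6, 250 bases before to 50 after the gene's start, written in the direction of transcription). Alb (serum albumin) and Serpina1b (an alpha-1-antitrypsin) belong to the hepatocyte genes that passed as lower in spretus with all arrays. Neither passed without spretus 02. Capitals mark GTTAAT, searched on both strands, a core of the site bound by the liver and kidney factor HNF1. Oas1a, an interferon-induced oligoadenylate synthetase that was higher in spretus, is shown with GAAA, any 2 bases and GAAA in capitals, also searched on both strands, a core of the interferon-stimulated response element.
Alb, chr5:90460620-90460919, plus strand: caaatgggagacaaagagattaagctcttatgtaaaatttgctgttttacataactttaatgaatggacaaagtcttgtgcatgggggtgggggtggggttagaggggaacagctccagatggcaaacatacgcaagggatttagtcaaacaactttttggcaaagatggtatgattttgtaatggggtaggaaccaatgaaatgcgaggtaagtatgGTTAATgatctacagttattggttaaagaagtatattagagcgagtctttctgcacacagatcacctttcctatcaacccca
Serpina1b, chr12:103738140-103738439, minus strand: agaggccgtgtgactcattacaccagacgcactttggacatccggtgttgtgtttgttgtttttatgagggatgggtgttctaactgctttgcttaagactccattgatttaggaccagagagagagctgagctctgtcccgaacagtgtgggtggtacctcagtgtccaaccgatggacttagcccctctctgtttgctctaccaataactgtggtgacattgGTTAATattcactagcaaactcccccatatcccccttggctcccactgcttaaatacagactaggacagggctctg
Oas1a, chr5:120907476-120907775, minus strand: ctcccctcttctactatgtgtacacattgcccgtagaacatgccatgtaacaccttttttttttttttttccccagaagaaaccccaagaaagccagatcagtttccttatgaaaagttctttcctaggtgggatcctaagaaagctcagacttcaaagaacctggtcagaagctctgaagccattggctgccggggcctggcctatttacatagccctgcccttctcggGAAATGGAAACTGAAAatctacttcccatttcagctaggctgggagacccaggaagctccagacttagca
GTTAAT began 32 bases before the start of Alb and 26 bases before that of Serpina1b. Of the 9 hepatocyte genes that passed the test as lower, 7 had a window in the table and 5 of these held GTTAAT, against 7.1% of all 32851 windows of 300 bases. A gene with several windows, such as Cp, was scored by the window with the most sites. The motif was not counted in the plasma protein genes of the hepatocyte that did not pass. Whether GTTAAT is more frequent in the lower genes than in those was therefore not tested. The Oas1a motif began 20 and 14 bases before the start of Oas1a, in overlapping copies, and was held by 3.44% of windows. These are matches of letters in the laboratory mouse sequence. No spretus sequence was used.

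Against the mean of the 4 house mouse groups, 1547 of 20652 probes differed in spretus (7.49% at an adjusted p under 0.05, limma with Benjamini-Hochberg adjustment). Of these, 626 were higher (3.03%) and 921 lower (4.46%), 491 by at least 1.5-fold and 108 by at least 2-fold. The median standard error of a difference was 0.101. Without spretus 02, 955 of 20552 probes differed (4.65%), 574 higher (2.79%) and 381 lower (1.85%). List counts without spretus 02 below are to be read beside these shares. Both ways 568 probes passed and 0 of the 1547 changed sign, though both fits share spretus 01 and 03 and the house mouse arrays. Spretus 02 was the lowest of the spretus arrays at 616 of the 911 lower probes measured on all 3, and the highest at 280 of 608 higher probes, and without that array higher probes outnumbered lower ones. With the set of arrays as a random block, 113 probes passed (0.547%), 77 higher and 36 lower. Within the set shared by spretus 01, spretus 03 and cas, 0 of 21097 probes passed limma's test with these 5 arrays and 1593 had an unadjusted p under 0.05. At 293 of 20197 probes (1.45%) all 3 spretus arrays lay outside all 21 house mouse arrays, 150 above and 143 below, and 275 of the 293 were among the 1547. In a simulation of this fit with 20652 probes, 61.2% of probes shifted by 0.5, 92.5% of those shifted by 1 and all 66 shifted by 2 were recovered. The simulated noise was independent, with 1 SD per probe on every array. It held no effect of the set of arrays, no wider spretus 02 and no correlated probes. The shares recovered therefore check the fit and do not give the power of the real comparison.

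The genes with the highest spretus levels serve unrelated roles. Tmsb10, which encodes the actin monomer-binding protein thymosin beta-10, was at 1.89, 4.66 and 1.56 on spretus 01, 02 and 03, and between -0.28 and 0.61 on the house mouse arrays, with a median of 0.17. It was 5.80-fold higher in spretus (2.54 ± 0.33 SE, adjusted p 4.76e-05, limma) and 1.56 higher without spretus 02. H13, the signal peptide peptidase that cleaves leftover signal peptides in the endoplasmic reticulum membrane, was even across the animals, at 2.19, 2.34 and 2.06 against -1.07 to 0.81 in house mice. Its difference was 2.17 ± 0.25 with all arrays, 2.10 without spretus 02 and 1.95 ± 0.19 for spretus 01 and 03 against cas. Rab4b, a small GTPase of endosome recycling, was at 1.48, 4.25 and 1.16 against a house mouse maximum of 0.37. Its difference of 2.13 ± 0.32 fell to 1.15 without spretus 02, the array on which both Rab4b and Tmsb10 were far highest. All 3 genes were separate from every house mouse array on each spretus array.

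Further rises passed with and without spretus 02. Hoxd10, a homeobox gene of the posterior body axis, was at 1.32, 1.08 and 0.98 in spretus and below the pool on 20 of the 21 house mouse arrays, which ran from -1.19 to 0.18 with a median of -0.76. The difference was 1.76 ± 0.14 (adjusted p 8.21e-08, limma) and 1.78 without spretus 02. Eya1, a coactivator and phosphatase needed for kidney formation, was at 0.92, 1.20 and 0.46 against -1.17 to 0.069, a difference of 1.51 ± 0.15. Igkv2-105, an immunoglobulin kappa variable segment, was at 1.22, 2.20 and 1.67 against -0.13 to 0.62, a difference of 1.53 ± 0.13. Serpina12 (vaspin), a secreted serpin linked to insulin sensitivity, was at 0.51, -0.14 and 0.70 in spretus and at -2.08 to -0.27 in house mice. There spretus 02 was the lowest of the 3, and the difference of 1.37 ± 0.22 became 1.62 without it and 1.80 ± 0.13 against cas within the set. Gpc2 (a glypican, 1.37 ± 0.19), Ptx4 (a pentraxin, 1.30 ± 0.17) and Pla2g2e (a secreted phospholipase, 1.29 ± 0.19) also passed with and without spretus 02 and lay above every house mouse array.

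Tex261 and Smyd2 complete the 12 largest rises and were less even. Tex261 was at 1.21, 2.26 and 1.12 against -1.28 to 1.17 in house mice, so the groups overlapped, and its other probe differed by -0.15 (adjusted p 0.436, limma). Smyd2, a lysine methyltransferase, was at 0.16, 3.08 and 0.34, and its difference of 1.31 ± 0.32 was 0.37 without spretus 02 (adjusted p 0.192, limma). The value of Smyd2 therefore rests on 1 array.

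**Figure D2:**
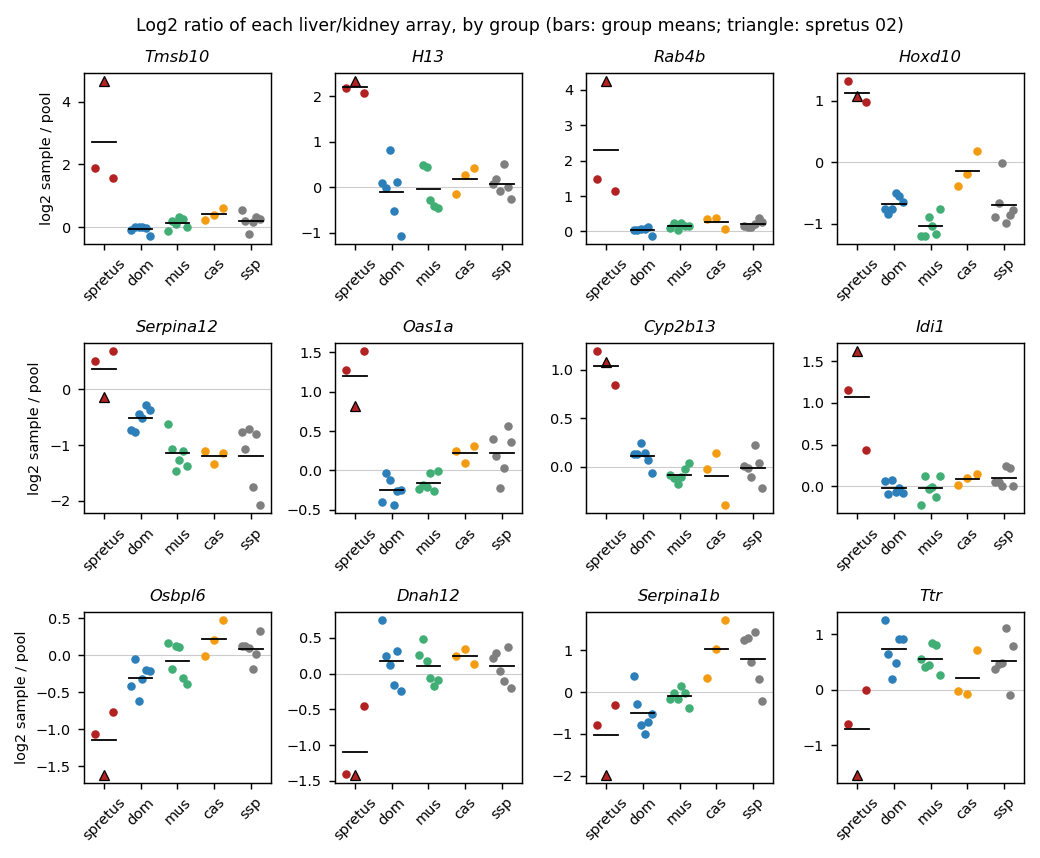
Log2 ratio to the C57BL6 pool (vertical axis) of every liver/kidney array for 12 genes, by group (horizontal axis: spretus n = 3, dom 6, mus 6, cas 3, ssp 6). Points are arrays, the triangle is spretus 02 and bars are group means. Tmsb10 and Rab4b reach 4.66 and 4.25 on spretus 02, while H13 lies at 2.06 to 2.34 on all 3 spretus arrays.

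The largest falls were less steady than the rises. Olfr948 (an olfactory receptor), Rpl41 (a ribosomal protein), Nf1 (neurofibromin), Snrpc (a U1 snRNP protein), Acta1 (skeletal muscle actin), Endod1 and Etd varied together over the 21 house mouse arrays, with pairwise r of 0.713 to 0.952 across arrays that share the pool, and so are not 7 separate observations. Olfr948 was at 0.63, -1.24 and -2.04 in spretus and anywhere from -1.38 to 2.93 in house mice. Its difference was -1.99 ± 0.44 with all arrays (adjusted p 0.00725, limma) and -1.81 without spretus 02 (adjusted p 0.0525). Rpl41 differed by -1.97 ± 0.44, Snrpc by -1.78 ± 0.48, Nf1 by -1.72 ± 0.38, Acta1 by -1.57 ± 0.48, Endod1 by -1.35 ± 0.32 and Etd by -1.27 ± 0.32. All 7 overlapped between the groups, spretus 01 lay above 0 on each, and dom 01 was the highest of the 21 house mouse arrays on each. Without spretus 02 only Endod1 of the 7 passed, and in brain the 7 probes differed by -0.93 to -1.89. Other probes of Nf1 differed by -0.031 and -0.15 and another probe of Endod1 by 0.087. Gpc6, a glypican, differed by -1.78 ± 0.40, with spretus at -1.67, -0.68 and 0.15 and house mice at -1.19 to 2.94, and its other probe by 0.16. Pdlim1, an actin-binding PDZ-LIM protein, differed by -1.26 ± 0.35, and it did not pass without spretus 02 (-1.20, adjusted p 0.114, limma).

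Falls in which every spretus array lay below every house mouse array were led by 5 genes. Sycp3, a synaptonemal complex protein, was at -1.83, -1.38 and -0.88 against -0.76 to 1.21, a difference of -1.58 ± 0.35. Over the house mouse arrays Sycp3 varied together with H13 (r of 0.819) and Tex261 (0.730), and those genes with each other (0.731). H13, Tex261 and Sycp3 are therefore not separate observations either, although Sycp3 was lower in spretus and H13 and Tex261 were higher. Dnah12, an axonemal dynein heavy chain, was at -1.41, -1.42 and -0.45 against -0.24 to 0.75, a difference of -1.25 ± 0.18. Guca2a (guanylin, a peptide that activates guanylate cyclase C) was at -0.45, -1.53 and -0.062 against 0.17 to 1.22, a difference of -1.18 ± 0.20. Osbpl6, an oxysterol-binding protein relative, was at -1.07, -1.62 and -0.77 against -0.63 to 0.47, a difference of -1.13 ± 0.14 (adjusted p 3.64e-05, limma). Cecr2, a bromodomain protein of chromatin remodelling, was at -1.05, -1.14 and -0.58 against -0.48 to 1.30, a difference of -1.11 ± 0.16, while its other probe differed by 0.032. All 5 passed without spretus 02, with differences of -0.75 to -1.58.

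**Figure D3:**
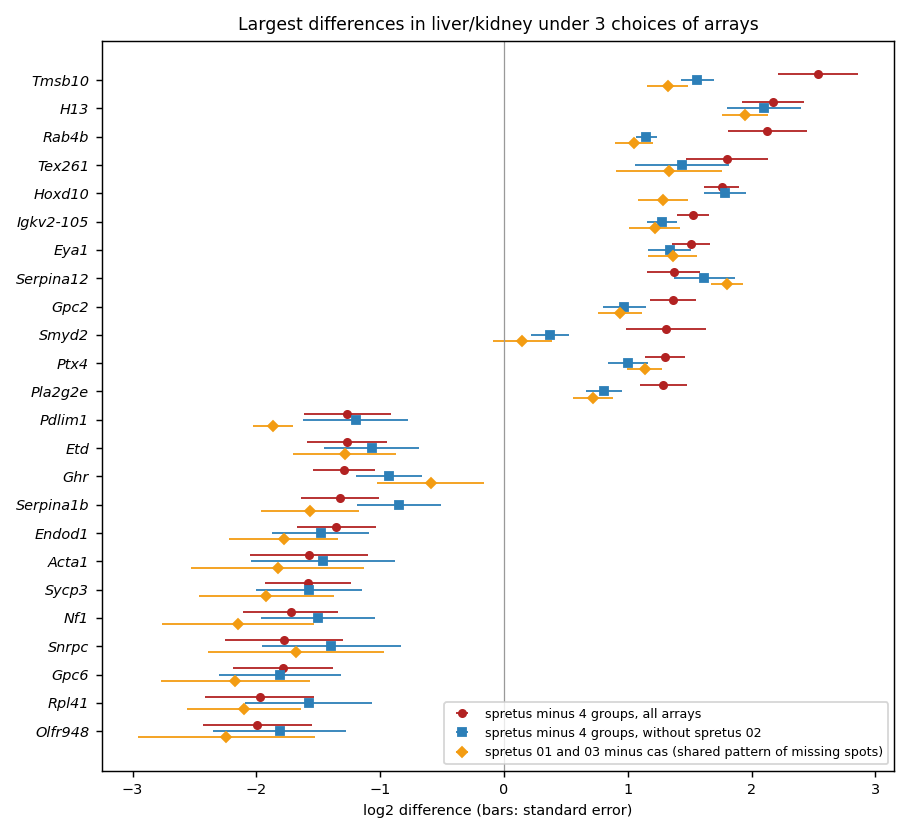
Log2 differences (horizontal axis, bars are standard errors) of the 12 largest rises and 12 largest falls: spretus minus the 4 house mouse groups with all arrays (circles), the same without spretus 02 (squares), and spretus 01 and 03 minus cas within 1 set of arrays (diamonds). All 24 keep their sign, though all 3 choices share spretus 01 and 03 and the genes were chosen by the first. Smyd2 shrinks from 1.31 to 0.37 without spretus 02, and H13 stays between 1.95 and 2.17.

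A group of 109 probes, 74 higher and 35 lower, passed with all arrays, without each spretus array in turn and with the set of arrays as a random block. The genes named from it here beyond those above were chosen after their values were seen. The probes of this group named 82 genes, and 85 of the 109 probes lay outside all house mouse arrays. Of all probes measured on all 3 spretus arrays, 1.45% did so. Passing these fits favours such separation, so the count of 85 is not separate evidence of it. Among the higher ones, Oas1a was at 1.27, 0.81 and 1.52 against -0.44 to 0.57 in house mice, a difference of 1.19 ± 0.13 (adjusted p 4.04e-06, limma) that was 1.39 without spretus 02. Xdh, the xanthine oxidoreductase of purine breakdown, was at 1.02, 0.58 and 0.83 against a house mouse maximum of 0.57. Plxnd1, a semaphorin receptor of blood vessels, was at 0.85, 0.26 and 0.87 against a maximum of 0.19. Sqor, which oxidises sulfide in mitochondria, was at 0.42, 1.44 and 0.57 against a maximum of 0.28. Lower genes included Car2, a carbonic anhydrase of the renal tubule and red cells (-0.53 ± 0.090), Cad, which starts pyrimidine synthesis (-0.50 ± 0.080), and Dmd, dystrophin (-0.45 ± 0.067). Their house mouse arrays all lay above the 3 spretus arrays. Beside cas within the set, all 109 probes had the same sign as in the main contrast, though spretus 01 and 03 also entered their choice.

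Plasma protein genes of the hepatocyte were lower in spretus where they passed the test. Of 53 probes of 52 genes, 0 were higher and 9 lower (17.0%, against 4.46% of all probes lower), and the median difference was -0.12, against -0.0024 over all probes, with 15 of 53 above 0. Serpina1b was at -0.78, -1.98 and -0.31 in spretus and reached 1.72 in house mice, whose lowest array lay below spretus 01 and 03. Its difference was -1.33 ± 0.32 (adjusted p 0.0114, limma), and it was -0.85 without spretus 02 (adjusted p 0.173). Ttr (transthyretin, a carrier of thyroid hormone and retinol) was at -0.61, -1.54 and -0.00023 against -0.094 to 1.26, a difference of -1.22 ± 0.24. Alb was at -0.081, -1.25 and -0.29 against -0.31 to 0.66, a difference of -0.63 ± 0.16 that was -0.27 without spretus 02 (adjusted p 0.337, limma). Trf (transferrin, the plasma iron carrier) was at -0.12, -0.19 and -0.013 against -0.10 to 0.61, and its difference of -0.48 ± 0.10 was -0.43 without spretus 02 (adjusted p 0.0435, limma). Spretus 02 was the lowest of the 3 for Serpina1b, Ttr, Alb and Trf. Itih4, Fgb, Fgg, Cp and Apoc2 were lower by 0.35 to 0.62. Without spretus 02 only Trf of the list passed, while the median stayed at -0.11, and spretus 01 and 03 against cas within the set had a median of -0.15. With the set of arrays as a random block 0 of the 53 passed. In the other gene lists described below, that block left 2 P450 probes, 1 probe each for cholesterol synthesis, sex-biased liver, endothelium, adrenal, interferon and MHC, and clock genes, and 0 elsewhere. The 2 P450 probes, Cyp2b13 and Cyp11a1, are also the sex-biased liver and the adrenal probe, so these are not separate results. These hepatocyte genes entered the liver marker mean given above, so the lower liver-minus-kidney difference and this list are not separate observations. In brain and testis the median over the same probes was -0.015 and -0.0020. Ratios do not show whether these genes are expressed there, so these medians do not show that the fall is particular to liver/kidney.

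Iron and haem genes overlap that list. Of 28 probes 0 were higher and 5 lower (17.9%, against 4.46% of all probes lower), with a median of -0.084. Without spretus 02, 1 was higher and 1 lower, and the median was -0.078. Besides Trf and Cp these were Hamp (hepcidin, the liver hormone that blocks iron export), Hmox2 and Cpox. Hamp was at -0.036, -0.88 and 0.017 against -0.029 to 0.61, a difference of -0.51 ± 0.12 that was -0.22 without spretus 02 (adjusted p 0.218, limma). Of 28 complement and acute phase probes, Hamp was the only one to pass (3.57% against 7.49% of all probes).

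Detoxification enzymes moved both ways. Among 55 cytochrome P450 probes 3 were higher and 3 lower, 10.9% against 7.49% of all probes, with a median of -0.023. Cyp2b13, of a subfamily with female-predominant members in mouse liver, was at 1.20, 1.09 and 0.85 in these males against -0.40 to 0.25 in house mice. Its difference was 1.06 ± 0.092 (adjusted p 1.04e-07, limma), 1.04 without spretus 02 and 1.12 ± 0.20 against cas within the set. A second probe annotated to Cyp2b13 differed by 0.051, and the close relatives Cyp2b9 and Cyp2b10 by 0.31 and 0.18 without passing. Cyp11a1, the cholesterol side-chain cleavage enzyme of steroid-making cells such as those of the adrenal, was at 0.96, 0.89 and 0.60 against -0.088 to 0.50, a difference of 0.72 ± 0.088. Of 12 adrenal probes it was the only one higher, and Chga of chromaffin cells was lower by 0.79 (16.7% in both directions against 7.49% of all probes). Chga was at -1.47 on spretus 02 and at 5.05e-04 and -0.27 on spretus 01 and 03, and its difference was -0.35 without spretus 02. Cyp27a1, of bile acid synthesis, was lower by 0.79 ± 0.17 with all arrays and by 0.38 without spretus 02 (adjusted p 0.142, limma), with spretus 02 at -1.44 and the others at -0.30 and -0.12. Cyp39a1 was higher by 0.28, and Cyp2j5 and Cyp20a1 lower by 0.33 and 0.55. Without spretus 02, 5 P450 probes were higher and 0 lower.

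Glutathione transferases, which conjugate glutathione to reactive compounds, gave 3 higher and 1 lower of 19 probes (21.1% against 7.49% of all probes), with a median of 0.10. Without spretus 02, 4 were higher and 3 lower, with a median of 0.092. Gstt2 was at 0.44, 0.40 and 0.30 against -0.33 to 0.12, a difference of 0.43 ± 0.070 with no overlap. Gstp1 was at -0.37, -0.20 and -0.61 against -0.26 to 0.30, a difference of -0.47 ± 0.089 that was -0.57 without spretus 02. Gsta2 was at 1.81, 0.0044 and 0.74 against -0.13 to 0.51, so that spretus 02 lay within the house mouse range and the others above it. Its difference rose from 0.73 ± 0.19 to 1.15 without spretus 02. Gstm3 was higher by 0.91 and did not pass without spretus 02 (adjusted p 0.237, limma). Of 17 glucuronosyl- and sulfotransferase probes 0 passed, while 2 were higher without spretus 02. Of 18 aldehyde and alcohol dehydrogenase probes 2 were higher (Adh4 by 0.70, Aldh3b1 by 0.31) and 1 was lower (Aldh7a1 by 0.41). That share was 16.7%, against 7.49% of all probes. The calls of Adh4 and Aldh3b1 were lost in 15 and 16 of the 24 fits that left out 1 array, and Aldh7a1 did not pass without spretus 02.

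Genes of lipid metabolism passed singly, not as whole pathways. Against 7.49% of all probes, 4.55% of cholesterol, 13.3% of bile acid, 8.82% of lipogenesis and 7.69% of fatty acid oxidation probes passed. Of 22 cholesterol synthesis probes only Idi1, the isopentenyl diphosphate isomerase, passed. It was at 1.15, 1.63 and 0.44 against -0.23 to 0.24, a difference of 1.04 ± 0.13 (adjusted p 3.24e-05, limma) and 0.76 without spretus 02. The list's median was 0.053. Among 30 bile acid and sterol transport probes, Abcg8 and Abcg5, partner subunits of 1 sterol exporter, went opposite ways. Abcg8 was at 1.38, 0.070 and 0.47 against -0.58 to 0.27, higher by 0.68 ± 0.15, and Abcg5 was at -0.40, -0.63 and -0.36 against -0.55 to 0.33, lower by 0.43 ± 0.11. Without spretus 02 Abcg8 was higher by 0.97 and Abcg5 no longer passed (adjusted p 0.136, limma). Cyp7a1, the rate-limiting enzyme of bile acid synthesis, differed by 0.024. Of 34 lipogenesis probes 1 was higher and 2 lower. Elovl1 and Elovl2, which lengthen fatty acids of different classes, differed by 0.80 ± 0.16 and -1.05 ± 0.22, each without overlap, neither passed without spretus 02 (adjusted p 0.0643 and 0.081, limma), and a second Elovl1 probe differed by 0.16. Of 39 fatty acid oxidation probes, Pex11a was higher by 0.30, and Etfa and Fgf21 were lower by 0.52 and 0.45, and none of these 3 passed without spretus 02. Of 31 glucose metabolism probes only Gcgr (the glucagon receptor, -0.54 ± 0.16) passed, a share of 3.23%, with spretus 02 at -1.36 and a difference of -0.12 without it. Of 42 urea cycle and amino acid probes 0 passed with all arrays, and 1 was higher and 1 lower without spretus 02.

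Major urinary proteins and sex-biased liver genes gave no common shift. Of 8 probes for major urinary proteins and related odorant carriers 0 passed. Mup3 was at -0.73, -2.26 and 0.72 on 1 probe and at 0.28, 1.03 and 0.37 on another, and house mice ran from -1.69 to 1.87 and from -1.61 to 1.35. The spread between animals of a group was therefore larger than the difference, and probes of this family may not tell its near-identical copies apart. Of 29 probes for sex-biased liver genes 2 were higher (Cyp2b13, Bcl6) and 2 lower (Ghr, Cux2), 13.8% against 7.49% of all probes. Of these genes Cyp2b13 and Ghr passed without spretus 02. Over the whole list, 4 probes were higher and 1 lower without that array. The list's median was 0.051 with all arrays and -0.014 without spretus 02. Ghr, the growth hormone receptor, was at -0.23, -1.14 and 0.13 against 0.019 to 1.62, a difference of -1.29 ± 0.25 that was -0.93 without spretus 02 (adjusted p 0.0498, limma).

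Kidney genes were near the house mouse level as lists. Of 44 proximal tubule probes 0 were higher and 1 lower (2.27% against 7.49% of all probes), with a median of -0.037. The lower one was Slc5a2, the glucose cotransporter of the early proximal tubule, at 0.090, -0.17 and -0.34 against 0.0012 to 0.71, a difference of -0.40 ± 0.12 that did not pass without spretus 02 (adjusted p 0.123, limma). Without spretus 02, 2 proximal tubule probes were higher and 0 lower. Kap, an androgen-regulated kidney gene, ran from -1.85 to 0.57 in spretus and from -2.32 to 0.72 in house mice. Of 39 distal nephron probes 1 was higher and 2 lower (7.69% against 7.49% of all probes), with a median of 0.041. Umod (uromodulin, the main urinary protein of the thick ascending limb) was at 0.71, 1.03 and 0.83 against -0.48 to 0.63, a difference of 0.72 ± 0.12 that was 0.63 without spretus 02 and 0.27 ± 0.13 against cas within the set. The tight junction genes Cldn14 and Cldn19 were lower by 0.41 and 0.42 and did not pass without spretus 02. Of 21 glomerulus probes 0 passed.

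Markers of other cells that the tissue could hold were counted the same way. Against 7.49% of all probes, 23.1% of red cell, 18.2% of pancreas, 9.09% of endothelial and 6.67% of stromal probes passed. The share was 11.1% for bile duct, 7.69% for adipose and 3.33% for lymphocyte probes. Of 22 macrophage probes 0 passed, and of 30 lymphocyte probes only Zap70 was lower (-0.23). The median macrophage level was 0.014, 0.016 and 0.061 in spretus and -0.013 to 0.095 in house mice. Of 13 red cell probes Hbb-b2 was higher by 0.74 and Sptb and Epb42 were lower by 0.81 and 0.61, and 0 passed without spretus 02. Among 22 endothelial probes Clec14a (-0.89 ± 0.15, below every house mouse array) and Oit3 (-0.75 ± 0.19) were lower. Among 30 stromal probes Pdgfrb was higher by 0.51 and Cnn1 lower by 0.43, and of 9 bile duct probes Sox9 was higher by 0.54. Pancreas probes went both ways (Prss1 and Amy2a5 higher, Cela3b and Try4 lower), as 4 of 22, and without spretus 02 the 2 lower ones did not pass. Of 13 adipose probes Pparg was lower by 0.39 and did not pass without spretus 02. The adipose list had a median difference of -0.081, with 2 of 13 probes above 0, and -0.061 without spretus 02. Its median level was 0.049, -0.082 and -0.054 on spretus 01, 02 and 03, the last 2 below every house mouse array (-0.0039 to 0.15). Of 21 muscle probes 1 was higher and 5 lower (28.6% against 7.49% of all probes), with a median of 0.031, and without spretus 02 1 was higher and 1 lower. Ryr1 held both signs, at 0.54 on its leading probe and -0.33 on another, while 5 further probes differed by -0.11 to 0.087. Their part in the other results was not tested.

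Innate defence and clock genes changed singly. Of 47 interferon and MHC probes 3 were higher (Oas1a, H2-Q2, Ciita) and 4 lower (H2-Aa, Rsad2, Mx2, Gbp2), 14.9% against 7.49%. Oas1a, H2-Q2 and Gbp2 passed without spretus 02. The interferon-induced Rsad2 differed by -0.44 ± 0.10, opposite to Oas1a, and was at 0.13, -0.78 and -0.071 against 0.080 to 0.32. Of 19 clock probes 2 were higher and 2 lower (21.1% against 7.49% of all probes). Bhlhe40, a repressor of the clock loop, was at 0.71, 1.15 and 0.81 against -0.54 to 0.55, a difference of 1.00 ± 0.12 and 0.87 without spretus 02. Rora, an activator of that loop, was higher by 1.08 ± 0.20 and by 1.36 without spretus 02, which at -0.22 lay below the other spretus animals. Dbp and Nr1d2, outputs of the clock, were lower by 0.71 and 0.57 and did not pass without spretus 02. Of 27 immediate early probes Atf3 (-0.34) and Fos (-0.39) were lower (7.41% against 7.49% of all probes), and neither passed without spretus 02. The hour of death of the animals is not given in the sources used here.

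Genes of housekeeping complexes passed in both directions. Against 7.49% of all probes, the share was 9.72% for ribosome, 8.96% for mitochondrial ribosome and 2.78% for oxidative phosphorylation probes. It was 7.89% for proteasome and 8.82% for splicing probes. Of 72 cytosolic ribosome probes 3 were higher (Rpl28 by 0.72, Fau by 0.61, Rpl34 by 0.28) and 4 lower, with a median of 0.024. Of 67 mitochondrial ribosome probes 4 were higher and 2 lower, led by Mrpl14 (0.87 ± 0.20), Mrpl36 (0.67 ± 0.16) and Mrpl43 (-0.49 ± 0.11). Of 72 oxidative phosphorylation probes Uqcrh was higher and Cox8a lower. Of 38 proteasome probes 2 were higher and 1 lower, and Psmb5, at 2.46 on spretus 02 and 0.29 and 0.19 on the others, fell from 0.95 to 0.21 without that array (adjusted p 0.139, limma). Of 68 splicing probes 3 were higher and 3 lower, with Snrpe at -0.046, -0.23 and -0.28 below every house mouse array (0.14 to 1.46) and Sf3a1 higher by 0.87, and without spretus 02 1 splicing probe was higher and 2 lower. Of 77 heat shock and chaperone probes 3 were higher and 9 lower (15.6% in both directions against 7.49% of all probes), with a median of -0.078. Cct4, a subunit of the cytosolic chaperonin, was at -0.081, -0.11 and -0.39 against -0.049 to 0.76, a difference of -0.64 ± 0.12, and another Cct4 probe differed by -0.52 without passing. Without spretus 02, 3 chaperone probes were higher and 4 lower, with a median of -0.052, and with the set block 0 passed. Of 6 ribosomal and mitochondrial ribosome genes named here, Rpl28 and Mrpl14 passed without spretus 02. Of 8 probes for Y-linked genes only Eif2s3y passed (12.5%), higher by 0.38. Of 141 olfactory and vomeronasal receptor probes, a class with little expected expression here, 2 were higher and 3 lower (3.55%), with a median of 0.025.

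Against each group apart, 1098 probes differed from dom (5.32%), 1094 from mus (5.30%), 785 from cas (3.80%) and 1053 from ssp (5.10%). These contrasts share the 3 spretus arrays, and cas has 3 arrays where the others have 6. Higher and lower probes were 529 and 569 for dom (2.56% and 2.76%), 527 and 567 for mus (2.55% and 2.75%), 243 and 542 for cas (1.18% and 2.62%) and 419 and 634 for ssp (2.03% and 3.07%). Without spretus 02 the counts were 1009 for dom (4.91%; 3.11% higher and 1.80% lower), 964 for mus (4.69%; 3.01% and 1.68%), 549 for cas (2.67%; 1.46% and 1.21%) and 645 for ssp (3.14%; 2.08% and 1.06%). Without spretus 01 they were 1717, 1648, 1401 and 1643. The cas count was 331 without cas 03 and 1262 without spretus 03. H13 differed by 2.30 from dom, 2.24 from mus, 2.02 from cas and 2.13 from ssp. Serpina1b was set against unlike house mouse levels, since dom averaged -0.49 ± 0.49 (SD, n = 6), mus -0.10 ± 0.18 (SD, n = 6), cas 1.03 ± 0.69 (SD, n = 3) and ssp 0.79 ± 0.65 (SD, n = 6). Its differences were -2.05 from cas and -1.81 from ssp, which passed, and -0.53 from dom and -0.92 from mus, which did not. Gpc6 differed by -2.83 from mus, -2.14 from cas and -2.41 from ssp, and by 0.26 from dom without passing. Hoxd10 was 1.26 higher than in cas and 1.80 to 2.16 higher than in the other groups, and Serpina12 was 0.87 higher than in dom and 1.51 to 1.55 higher than in the others.

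**Figure D4:**
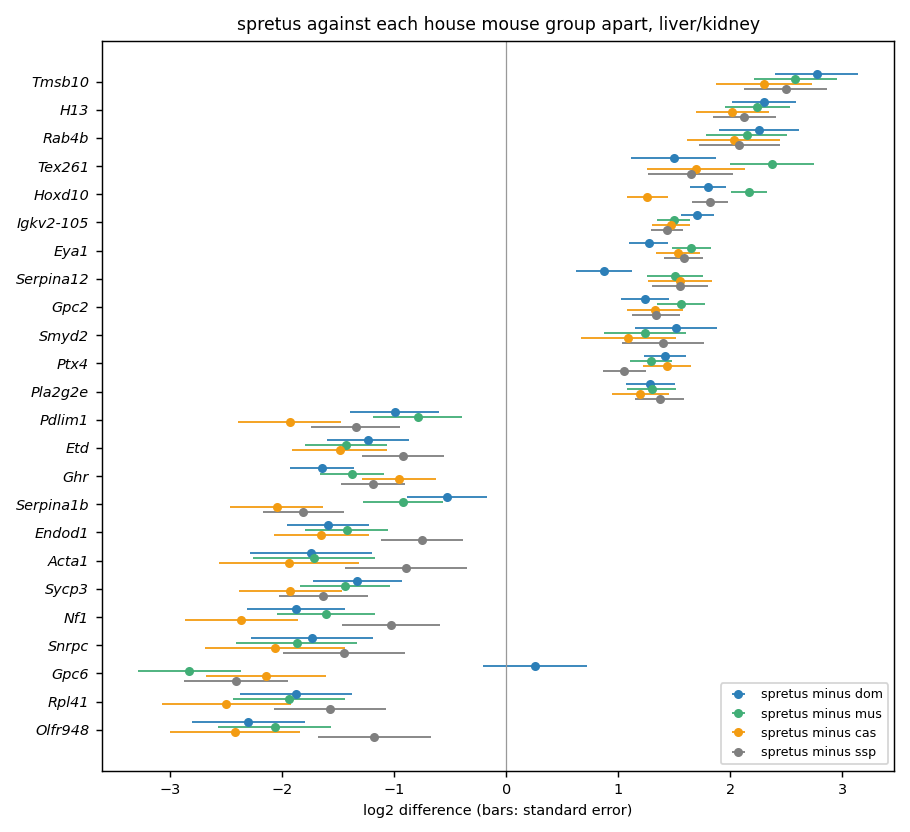
Log2 differences (horizontal axis, bars are standard errors) of spretus minus dom, mus, cas and ssp apart for the 12 largest rises and falls. The 12 rises are above 0 against every group, while Gpc6 is at 0.26 against dom and at -2.14 to -2.83 against the other groups.

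The spretus difference in liver/kidney was set against that in brain and in testis in 1 model of all 72 arrays, where the difference between tissues was tested itself. At 392 of 20589 probes (1.90%) it differed from brain, 163 higher in liver/kidney (0.792%) and 229 lower (1.11%). At 1231 probes (5.98%) it differed from testis, 417 higher (2.03%) and 814 lower (3.95%). Without spretus 01 the gap to brain passed at 621 probes. H13 differed by 2.17 in liver/kidney, -0.17 in brain and 0.17 in testis, a gap of 2.35 to brain and 2.01 to testis. Tmsb10 differed by 0.77 in brain and -0.14 in testis, Rab4b by 0.86 and 0.14, and Tex261 by 0.092 and 0.040. Without spretus 02 the Tmsb10 gap to brain was 0.79 and did not pass. Eya1, Idi1 and Cyp2b13 also had a larger difference in liver/kidney than in either tissue, at 1.51, 1.04 and 1.06 against -0.18, 0.16 and 0.25 in brain. Other genes differed elsewhere and hardly here. Ano10 differed by 0.32 in liver/kidney and 2.22 in brain, Ccdc127 by 0.080 and 1.62. Edf1 differed by 0.050 in liver/kidney and 2.91 in testis, and Myl12a by -0.0043 and 2.65. Serpinb9e, a serpin, was lower by 2.33 than in brain and by 2.01 than in testis, from a value of -5.74 on spretus 02, while spretus 01 and 03 were at 0.31 and 0.49, and without spretus 02 the gaps were -0.28 and 0.039. Of the 109 probes described above, 34 passed in the same direction in brain (where 4.60% of all probes passed, 2.85% higher and 1.75% lower), 19 in testis (8.23%, 5.11% higher and 3.12% lower), 12 in both and 65 in neither, and 53 differed from brain and 81 from testis. The 109 were chosen by their liver/kidney differences, which enter both gaps, so a large gap was favoured beforehand. The counts of 53, 81 and 65 are therefore not evidence that these probes are particular to liver/kidney. Osbpl6, at -1.13 here, was at -0.65 in brain and -0.37 in testis.

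**Figure D5:**
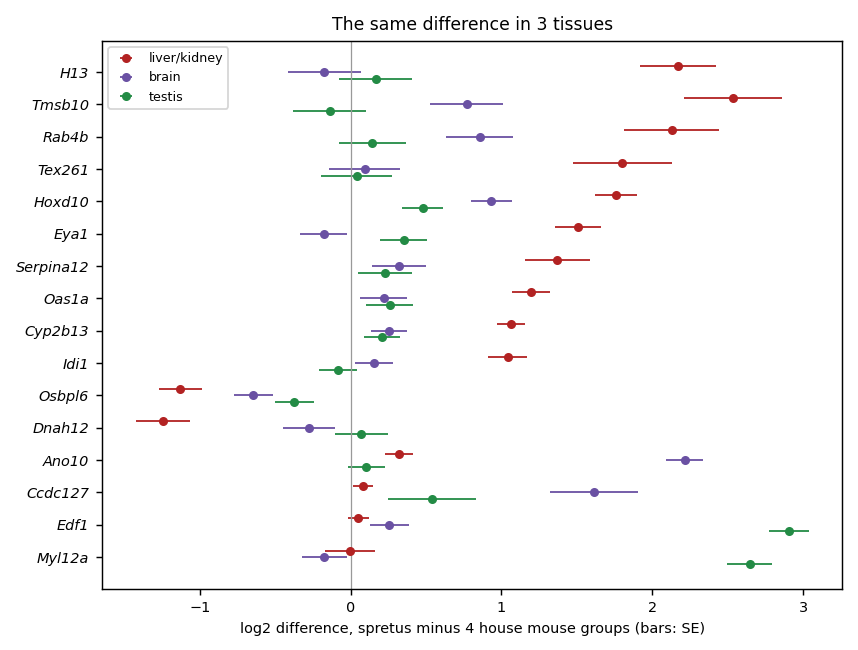
Log2 difference of spretus minus the mean of 4 house mouse groups (horizontal axis, bars are standard errors) in liver/kidney, brain and testis for 16 genes. H13 is at 2.17 in liver/kidney and between -0.17 and 0.17 in brain and testis, and Edf1 and Myl12a are at 2.91 and 2.65 in testis and near 0 in liver/kidney.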

How the data were processed

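Log2 ratios of 72 arrays with 2 channels were deposited by the authors, per the labels as sample against a C57BL6 pool. The scanner and how the ratios were background-corrected or normalised: not given in the sources used here. Log2 of sample over pool is taken as the scale, since neither the base nor the direction is stated. Adjacent duplicate spots were averaged (22320 pairs), 1488 single spots dropped, 232 Gapdh pairs averaged into 1 probe, and each of 24 liver/kidney arrays centred on its median. Of 22089 probes, 15801 had 1 gene symbol, 294 several and 5994 none listed, and 15601 matched a RefSeq gene (GRCm38.p6). A probe needed 2 values per group.

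limma 3.58.1 (lmFit, contrasts.fit, eBayes; R 4.3.3) fitted 1 coefficient per group over all 5 groups, with two-sided tests and Benjamini-Hochberg adjustment over all probes, and a probe passed at an adjusted p under 0.05. The tissue model took the animal as a random block (consensus correlation 0.020). The packages statmod 1.5.0 and data.table (version 1.17.8) served in R, and matplotlib 3.10.9, numpy 2.4.6 and pandas 2.3.3 in Python 3.11.15. The fit was tested on simulated data. Alternatives changed the normalisation, weights, filters, blocks, covariate and arrays used. The number of arrays limits the precision, since ratios carry no counts.

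Named genes were, among probes with 1 symbol that passed, the 12 largest differences each way, the 5 largest each way whose spretus arrays lay outside all house mouse arrays, up to 3 per gene list by smallest p, the 2 largest each way against each group and the 3 largest each way per tissue difference. RIKEN, Gm, LOC, expressed-sequence and pseudogene names were passed over. Other named list members were chosen after their values were seen. Members, rule and lists were chosen with earlier results of these data known.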

Additional observations from a re-analysis of the deposited data

Results flagged for a closer look

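Among 312 groups of 6 arrays examined for a single outlying array (a gap over range above Dixon's critical value, which chance gives in about 1 of 20 groups), 19 had one. Dom 01 was the outlying array at Olfr948 (2.93), Rpl41 (2.70), Snrpc (2.96), Nf1 (3.06), Etd (2.30), Adh4 (-0.83), Sptb (0.66), Fau (0.37), Hnrnpa1 (0.57) and Nr1d2 (-0.28). The others were Tmsb10 on dom 13 (-0.28), Eif2s3y on dom 03 (0.25), Tex261 on ssp 06 (-0.75), Hoxd10 on ssp 03 (-0.019), Aldh7a1 on ssp 04 (0.22), Thrsp on ssp 05 (0.46), Abcg8 on ssp 05 (-0.58), Pparg on mus 08 (-0.20) and Olfr157 on mus 02 (-0.22).

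The spretus difference in liver/kidney differed from that in brain at 392 probes and from that in testis at 1231, by limma's test of the difference. The gaps to brain were 2.35 for H13, 1.77 for Tmsb10, 1.71 for Tex261, -2.33 for Serpinb9e, -1.89 for Ano10 and -1.54 for Ccdc127. The gaps to testis were 2.68 for Tmsb10, 2.01 for H13, 1.98 for Rab4b, -2.86 for Edf1, -2.65 for Myl12a and -2.01 for Serpinb9e.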

How the results depend on the processing

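Counts of differing probes depended on the treatment of the arrays. Against the 4 house mouse groups 1547 became 899 with quantile normalisation, 719 with array weights, 647 with the replicate block (title number as a term), 113 with the set of arrays as a random block and 58 with the liver-minus-kidney covariate. Against dom, 1098 became 666 with array weights, 162 with the replicate block, 43 with the set block, 30 with the covariate and 226 with the spread of spretus and dom alone. Against mus, 1094 became 284 with the replicate block, 38 with the set block, 165 with the covariate and 283 with the pair's own spread. Against cas, 785 became 262 with quantile normalisation, 357 with weights, 198 with the replicate block, 521 with the set block, 18 with the covariate, 4 with the pair's own spread and 0 within the set. Against ssp, 1053 became 531 with quantile normalisation, 648 with weights, 159 with the replicate block, 20 with the set block, 67 with the covariate and 76 with the pair's own spread. The differences between tissues became 193 (brain) and 342 (testis) with quantile normalisation. The cause of these changes was not tested.

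Leaving out 1 array at a time gave 955 to 2125 probes for the 4 groups, 789 to 1717 for dom, 836 to 1648 for mus, 331 to 1401 for cas and 645 to 1643 for ssp, over the 24 liver/kidney arrays, each highest count being without spretus 01. For the differences between tissues, only the 3 spretus liver/kidney arrays were left out in turn, which gave 412 to 621 for the gap to brain and 936 to 1476 for the gap to testis. Leaving out the brain array mus 08, whose title and channel label disagree, gave 369 for the gap to brain. Without spretus 02 the Serpinb9e gap to testis turned from -2.01 to 0.039, over a range of -3.07 to 0.039 as each spretus array was left out. Of 101 genes named from the main contrast all kept their sign under quantile normalisation, weights, both blocks, the covariate and without each spretus array. These fits reuse the arrays from which the genes were chosen, so kept signs were likely beforehand and are not separate evidence. Of the 101, 49 passed without spretus 02, 20 with the set block and 12 with the covariate. Title numbers did not pair animals across groups: deviations from group means correlated at -0.12 to 0.14 over 27 pairs with the same number.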
